A study of Rattus norvegicus with 13 samples.

Results

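The genes described here encode chromatin remodellers, bromodomain proteins and histone chaperones, and they were chosen by gene symbol alone. The symbols taken were those of the CHD, SMARC, ARID, INO80, BRD, BRPF, BAZ, SUPT, ASF1, CHAF1, MTA and MBD families, together with *Bptf*, *Ep400*, *Srcap*, *Ssrp1*, *Hells*, *Atrx* and *Daxx*. Of the 14790 gene records in the deposited table, 73 records with 72 symbols matched, since *Atrx* is listed under 2 records. RNA-seq was run on mammary epithelial cells of 13 Wistar-Furth rats, a strain susceptible to mammary cancer, with 1 library per rat and no treatment named. The 6 rats of 6 weeks of age stood within the window of susceptibility (WOS), the span of early life in which carcinogen exposure most readily gives mammary tumours, and the 7 rats of 10 weeks stood outside WOS. The cells came from abdominal and inguinal glands digested with collagenase and enriched for ductal fragments on a nylon filter, and such fragments also hold stromal fibroblasts and immune cells. The question the design poses for these genes is which parts of the chromatin machinery are expressed at different levels within and outside WOS.

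Nucleosomes, in which DNA is wrapped around histones, are moved, spaced, evicted or given variant histones by ATP-dependent remodellers of the SWI/SNF, ISWI, CHD and INO80 families. Bromodomain proteins read acetylated histone tails, and histone chaperones hand over the histones themselves: CAF-1 and ASF1 behind the replication fork, ATRX and DAXX at silent repeats, and FACT ahead of the RNA polymerase. Many of these proteins work as alternative subunits of one complex, so that a change in the ratio of related subunits can change the makeup of the complex as well as its amount.

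Values are normalized counts, that is, estimated read counts per gene that were scaled per library and rounded to whole numbers before deposit. The scale has no correction for gene length, so levels are compared between rats and never between genes. Column totals lay between 13261906 and 15659533 within WOS and between 13766735 and 15402814 outside WOS. In 7 rats some whole numbers from 1 to 30 never occurred, most of all in rats 78 and 80, a trace of scaling up, so a low value in these rats stands for fewer reads than it shows. For the comparison of the ages limma was fitted to log2(normalized count + 1) of all 14790 genes, with Benjamini-Hochberg adjustment over them, and a gene with an adjusted p under 0.05 is called DE. A log2 fold change above 0 means higher expression within WOS, its error is a standard error (SE), and changes of genes with low counts come out too small on it. After removal of the mean of each age, the first component of the variation (28.3%) parted a smaller set of 5 rats (75 and 80 within WOS, 78, 81 and 83 outside) from a larger set of 8, a split that no label names. Luminal epithelial markers such as *Krt8* were present in every rat, and their list summed to counts of 36799 to 53209 within WOS and 49980 to 64813 outside it, with 2 of its 7 genes (*Epcam* and *Cdh1*) higher outside WOS. The fibroblast list summed to counts of 106794 to 222648 within WOS and 19420 to 55407 outside it, with 4 of the 6 measured DE and higher within WOS. Of the adipocyte markers 2 of 4 measured were higher within WOS, and of the mast cell markers *Cpa3* and *Ms4a2* were higher within and *Kit* outside WOS. Lymphocyte markers, with 3 of 6 in the table, summed to 0 to 101, with medians of 7 within WOS and 2 outside it. Of these 3, 1 (*Cd79b*) was DE and higher within WOS. Of 5 macrophage and 4 measured endothelial markers, 0 were DE. In such bulk samples, fewer cells of a type and less RNA per cell cannot be told apart.

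The 4 members that were DE and higher within WOS, *Chaf1a*, *Chaf1b*, *Asf1b* and *Smarcal1*, all serve replicating DNA, and the bases before their start sites are shown because genes of the cell cycle are known to carry E2F, CCAAT and CHR letters there. The stretches are the 250 bases before each RefSeq start site on the GRCr8 assembly, written 5′ to 3′ along the gene's strand, and capitals mark every TTTGAA (the CHR letters) and CCAAT on either strand, which read TTCAAA and ATTGG on the opposite one. No marked letters overlap.
Chaf1a (chr9:960975-961224, plus strand): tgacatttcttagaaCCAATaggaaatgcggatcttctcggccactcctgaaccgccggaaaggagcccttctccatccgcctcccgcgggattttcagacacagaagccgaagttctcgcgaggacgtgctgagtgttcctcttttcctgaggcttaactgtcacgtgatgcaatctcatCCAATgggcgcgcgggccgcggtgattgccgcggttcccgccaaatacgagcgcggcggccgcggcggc
Chaf1b (chr11:46670400-46670649, plus strand): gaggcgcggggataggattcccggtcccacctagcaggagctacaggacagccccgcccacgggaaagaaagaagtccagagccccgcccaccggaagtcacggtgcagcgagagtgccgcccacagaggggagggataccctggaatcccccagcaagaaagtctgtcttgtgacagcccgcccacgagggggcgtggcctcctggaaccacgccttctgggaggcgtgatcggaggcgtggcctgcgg
Asf1b (chr19:41100353-41100602, minus strand): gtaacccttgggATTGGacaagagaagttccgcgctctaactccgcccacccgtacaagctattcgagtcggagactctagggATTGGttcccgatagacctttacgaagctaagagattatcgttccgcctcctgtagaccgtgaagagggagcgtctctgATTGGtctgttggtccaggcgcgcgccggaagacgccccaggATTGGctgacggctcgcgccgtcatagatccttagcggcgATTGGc
Smarcal1 (chr9:81689218-81689467, plus strand): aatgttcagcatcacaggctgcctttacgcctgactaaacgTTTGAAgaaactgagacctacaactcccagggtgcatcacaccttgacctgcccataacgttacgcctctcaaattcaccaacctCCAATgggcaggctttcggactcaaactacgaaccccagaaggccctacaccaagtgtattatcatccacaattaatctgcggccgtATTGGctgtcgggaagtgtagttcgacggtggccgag

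*Asf1b* held 5 copies of CCAAT on the opposite strand, *Chaf1a* held 2 copies as written, *Smarcal1* held 1 on each strand and 1 TTTGAA, and *Chaf1b* held none of these letters in the 250 bases. *Asf1b* also has 1 TTTGAA past its start site, outside the stretch printed. The E2F letters TTTCCCGC and TTTGGCGC were in none of the 4 windows of 300 bases. Only these exact letters were searched, so near variants were not counted, such as ttcccgccaaa in the *Chaf1a* stretch. Absence of the exact letters therefore does not show that a window lacks an E2F site. Among the 33469 RefSeq windows of that length, searched on both strands, TTTCCCGC was in 0.974%, TTTGGCGC in 0.493%, TTTGAA in 18.3% and CCAAT in 37.5%. Of the 72 member symbols, 61 had a window, and CCAAT was in 23 of them (37.7%), close to the share of all windows. TTTGAA was in 8 members (13.1%), TTTCCCGC in 3 (*Arid1a*, *Hells* and *Smarcd1*) and TTTGGCGC in 1 (*Smarce1*). Of the 7 DE members higher outside WOS, 4 had a window, and 3 of these (*Arid3a*, *Chd4* and *Chd9*) held CCAAT and 1 (*Chd9*) TTTGAA, beside 3 and 2 of the 4 genes higher within WOS. These matches describe letters only, and none of these windows was measured for binding.

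Across the 73 records, *Chaf1a*, *Chaf1b* and *Asf1b*, chaperones of replicating chromatin, were DE and higher within WOS, while *Chd1*, *Chd4*, *Chd7* and *Chd9*, motor proteins of the CHD family, were DE and higher outside it. Of the 73 records, 4 were DE and higher within WOS (5.48%), against 8.71% of all genes tested, and 7 were DE and higher outside WOS (9.59%), against 7.39% of all genes. Both shares lie near their background, so neither count is by itself a result about these genes. The ages did not overlap, with all rats of one age above all of the other, for 3 members higher within WOS (3.29% of all genes) and 4 higher outside WOS (2.78% of all genes). The median log2 fold change of the members was -0.14, beside 0.028 over all genes, and 51 of 73 records (69.9%) lay below 0, beside 47.5% of all genes. Under library size scaling this became 48 records (65.8% against 43.2%), and the median of the members stayed below 0 under each scaling tried. All 73 records passed the minimum mean of 1, and the member with the lowest mean over all rats had 10.1 normalized counts.

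**Figure D1:**
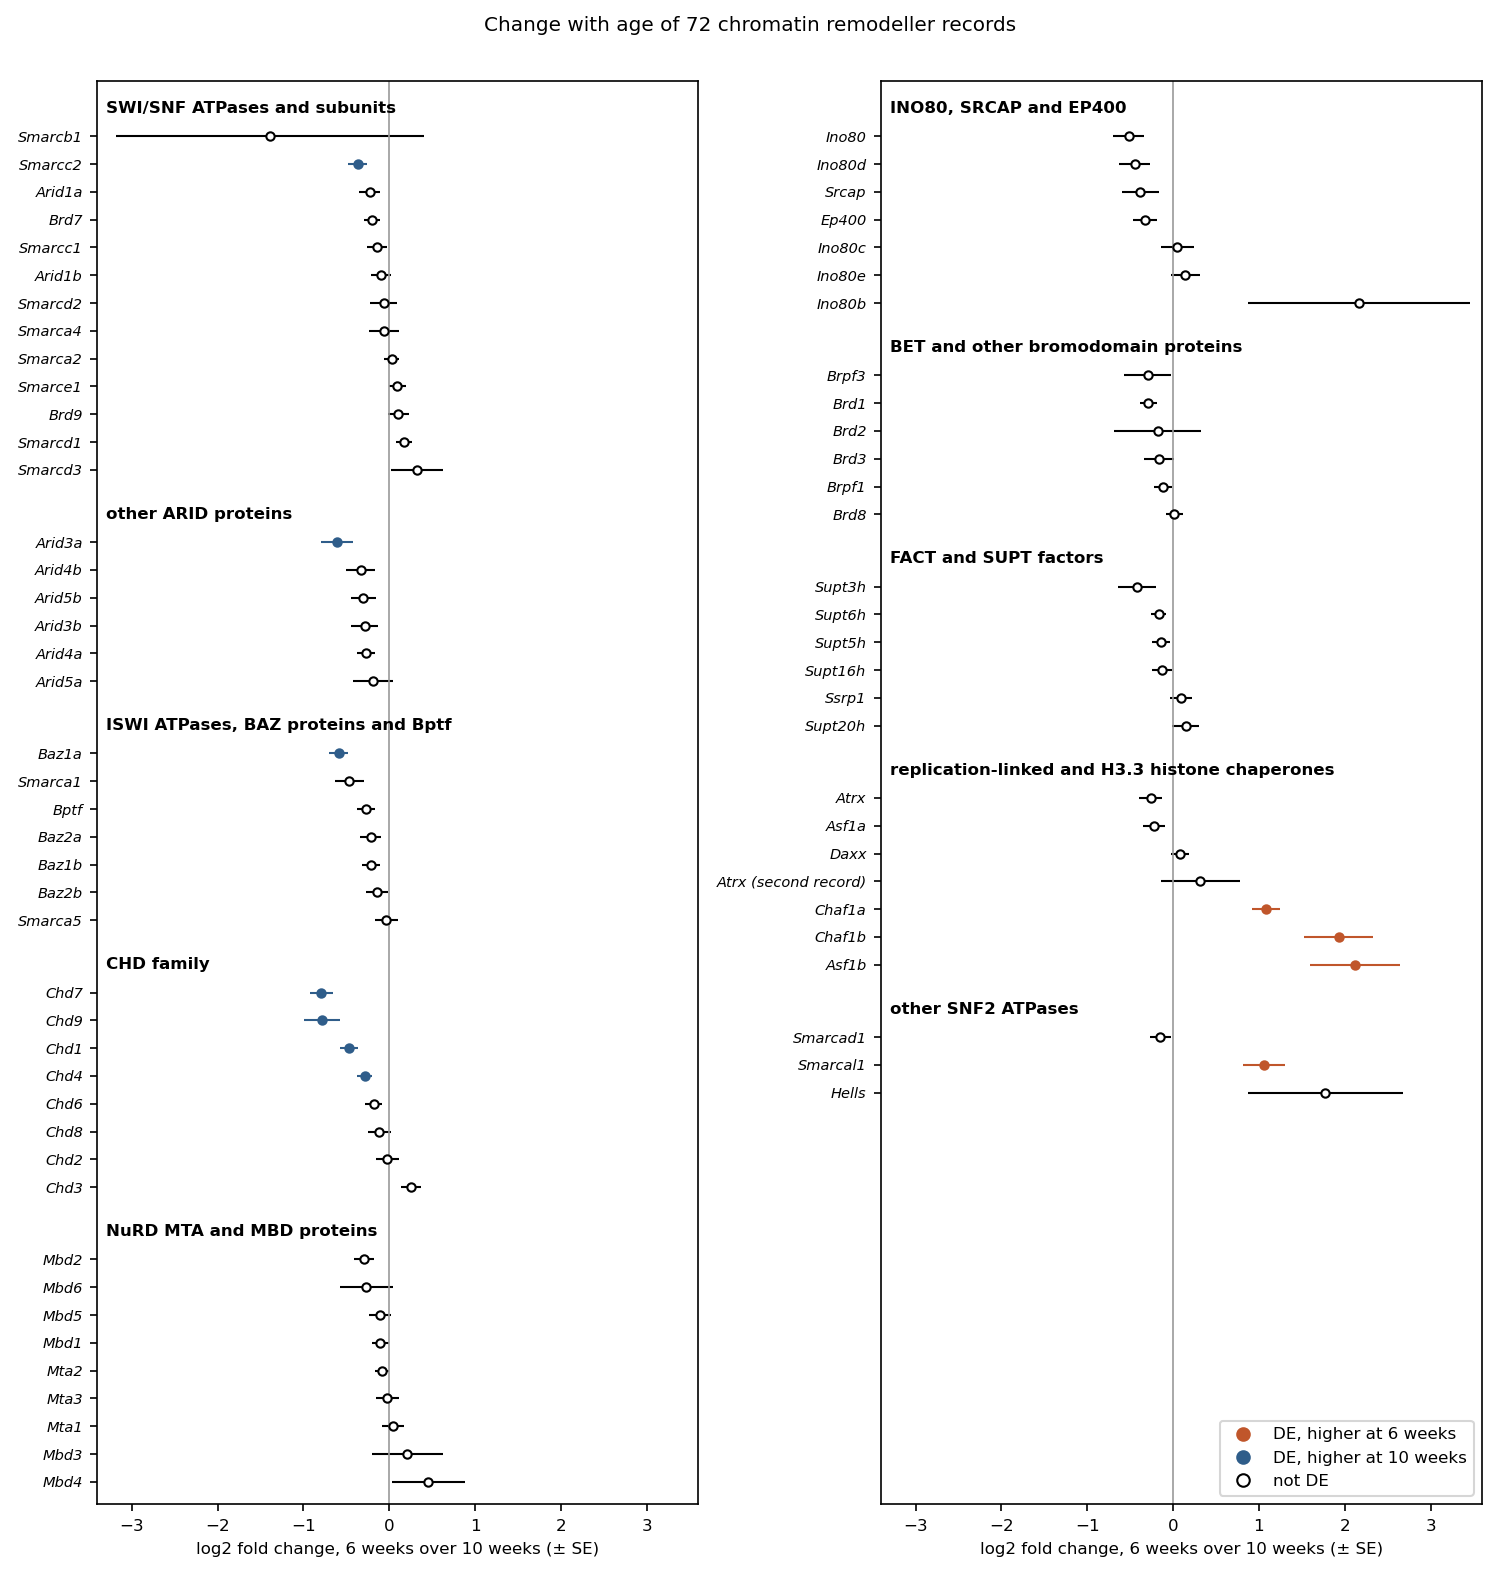
Log2 fold change of 72 of the 73 member records, 6 weeks over 10 weeks, with its SE (bar), grouped by role; filled points are DE in limma, with 4 to the right of 0 and 7 to the left. The replication-linked chaperones *Chaf1a*, *Chaf1b* and *Asf1b* stand far to the right of 0, as do *Ino80b* and *Hells*, which are not DE. All 7 members of the ISWI and BAZ group and all 6 of the other ARID group lie left of 0 (47.5% of all genes do).

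Among the replication-linked and H3.3 chaperones, 3 of 7 records were DE and higher within WOS (8.71% of all genes) and 0 were higher outside it (7.39% of all genes). CAF-1 deposits histones H3 and H4 on newly copied DNA, and both of its subunits listed here were higher within WOS. *Chaf1a* (ENSRNOG00000046479), the large subunit, ran from 87 to 132 (median 119) within WOS and from 41 to 78 (median 51) outside it. No 6-week rat overlapped a 10-week rat, and the level within WOS was 2.12-fold that outside (log2 fold change 1.09 ± 0.16, adjusted p = 0.000976). *Chaf1b* (ENSRNOG00000001692), the WD40 subunit, ran from 22 to 56 (median 36.5) within WOS and from 2 to 17 (median 10) outside it. Again the ages did not overlap (log2 fold change 1.93 ± 0.40, adjusted p = 0.00739). *Asf1b* (ENSRNOG00000005115), the ASF1 copy tied to dividing cells, which passes H3 and H4 on to CAF-1, ran from 6 to 35 (median 14.5) within WOS and from 0 to 10 (median 3) outside it. Its ages overlapped at the edge, since rat 81 outside WOS had 10 and rats 75 and 80 within WOS had 6 and 8 (log2 fold change 2.12 ± 0.53, adjusted p = 0.0177). All 3 genes stayed DE when any 1 rat was left out, with adjusted p of at most 0.00348, 0.0211 and 0.0455 in turn.

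The other chaperones of this group were not DE. *Asf1a*, the ASF1 copy used in all cells, ran from 256 to 356 (median 301) within WOS and from 268 to 421 (median 364) outside it (log2 fold change -0.22 ± 0.12, adjusted p = 0.235). *Daxx*, which binds the variant H3.3, ran from 248 to 355 (median 324) within WOS and from 272 to 351 (median 289) outside it (log2 fold change 0.079 ± 0.11, adjusted p = 0.650). *Atrx*, its remodeller partner, ran from 2430 to 3844 (median 2917.5) within WOS and from 2940 to 4361 (median 3664) outside it (log2 fold change -0.26 ± 0.13, adjusted p = 0.204), and its second record held only 2 to 27 normalized counts. All of these ranges overlapped between the ages.

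Of the 3 other SNF2 ATPases, 1 was DE and higher within WOS (8.71% of all genes) and 0 were higher outside it (7.39% of all genes). *Smarcal1* (ENSRNOG00000016503), which rewinds DNA at stalled replication forks, ran from 46 to 82 (median 66) within WOS and from 14 to 41 (median 34) outside it. The ages did not overlap, and the level within WOS was 2.09-fold that outside (log2 fold change 1.06 ± 0.25, adjusted p = 0.0130). *Hells* (ENSRNOG00000047104), a remodeller needed for DNA methylation of repeats and abundant in dividing cells, ran from 6 to 85 (median 34.5) within WOS and from 0 to 62 (median 11) outside it and was not DE (log2 fold change 1.77 ± 0.90, adjusted p = 0.197). Its values overlapped, since rat 81 outside WOS had 62 while rats 75 and 80 within WOS had 21 and 6. In the larger set of rats *Hells* had a log2 fold change of 3.23 (adjusted p = 0.0433) and in the smaller set of -0.60, so its direction rested on which rats were included. More genes of the table were DE in the larger set alone, 3469 beside 2381 with every rat. *Smarcad1*, a remodeller of DNA end repair, ran from 486 to 647 (median 544.5) within WOS and from 488 to 741 (median 633) outside it (log2 fold change -0.15 ± 0.12, adjusted p = 0.439).

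Markers of dividing cells moved with these 4 genes. The S phase list, with *Mcm5* and *Rrm2*, summed to counts of 3736 to 5831 within WOS and 3221 to 3962 outside it, and 7 of its 11 genes were DE and higher within WOS. The mitosis list, with *Mki67* and *Top2a*, summed to counts of 2810 to 6075 within WOS and 355 to 1575 outside it, and all 10 of its 10 measured genes were DE and higher within WOS. The part of dividing cells, and of the fibroblast markers given above, in the levels of *Chaf1a*, *Chaf1b*, *Asf1b* and *Smarcal1* was not tested.

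The CHD family held the most members that were higher outside WOS, with 4 of 8 DE in that direction (7.39% of all genes) and 0 in the other (8.71% of all genes). Its median log2 fold change was -0.24, and 2 of the 4 calls, those of *Chd4* and *Chd9*, depended on which rats were included. *Chd7* (ENSRNOG00000006689), an enhancer-bound remodeller mutated in CHARGE syndrome, ran from 1353 to 2204 (median 1673.5) within WOS and from 2262 to 3317 (median 3037) outside it. Every 10-week rat lay above every 6-week rat, and the level outside WOS was 1.73-fold that within (log2 fold change -0.79 ± 0.13, adjusted p = 0.00210). *Chd1* (ENSRNOG00000014434), which spaces nucleosomes in transcribed genes, ran from 3358 to 4705 (median 4119.5) within WOS and from 4949 to 6921 (median 5577) outside it, again without overlap (log2 fold change -0.47 ± 0.11, adjusted p = 0.0133). Both stayed DE without any 1 rat, with adjusted p of at most 0.00699 and 0.0340.

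*Chd9* (ENSRNOG00000049302), a close relative of *Chd7*, ran from 1239 to 2345 (median 2037) within WOS and from 1814 to 4006 (median 3405) outside it. Rat 81, at 1814, was the only 10-week rat below 3230, and it alone fell within the range of the 6-week rats (log2 fold change -0.78 ± 0.21, adjusted p = 0.0235). The call was lost without rat 70 (adjusted p = 0.0552) or without rat 84 (0.0565), and in the larger set of rats its log2 fold change was -1.12, beside -0.23 in the smaller. *Chd4* (ENSRNOG00000018309), the main motor of the NuRD deacetylase complex, ran from 6777 to 8474 (median 7758) within WOS and from 8866 to 9851 (median 9331) outside it. No rats of the 2 ages overlapped, but the level outside WOS was only 1.22-fold that within (log2 fold change -0.29 ± 0.085, adjusted p = 0.0374), and the gene kept its call in 2 of the 13 fits that left out 1 rat, those without rat 71 or rat 81 (adjusted p up to 0.0699 in the others). The remaining 4, *Chd2*, *Chd3*, *Chd6* and *Chd8*, had log2 fold changes from -0.18 (*Chd6*) to 0.26 (*Chd3*) and were not DE. The luminal epithelial list given above also summed higher on the whole outside WOS, although only 2 of its 7 genes were DE. The basal epithelial list, with 0 of 7 DE, summed to counts of 18351 to 28790 within WOS and 25550 to 35430 outside it. The part of either list in these differences was not tested.

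**Figure D2:**
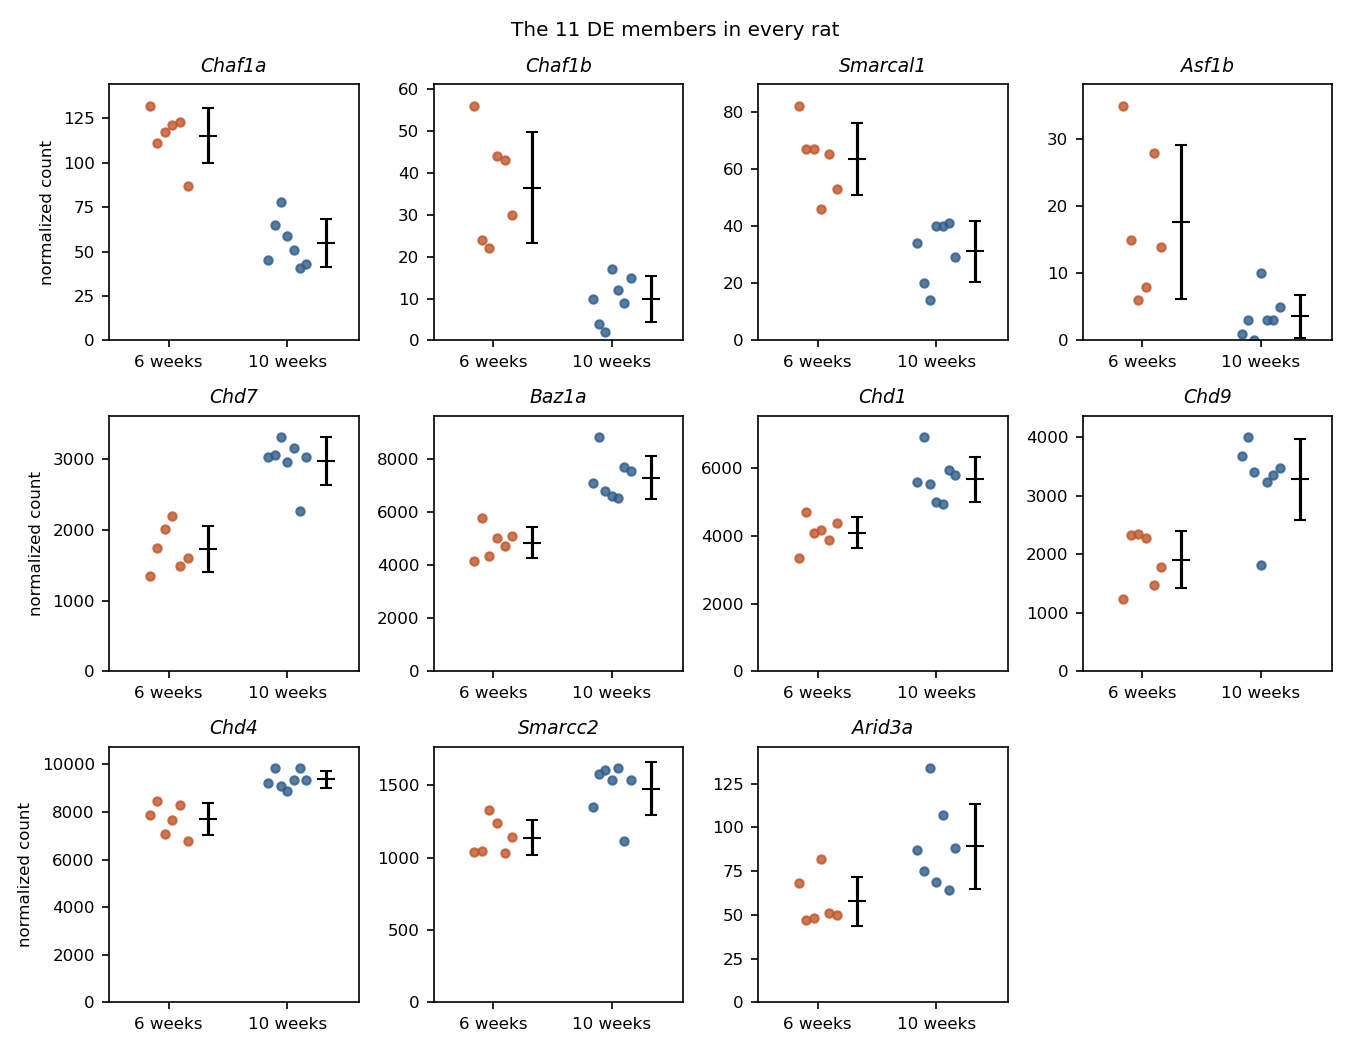
Normalized counts of the 11 DE members in every rat (points) at 6 and 10 weeks, with mean ± SD beside them (bars), each panel on its own axis from 0. The ages do not overlap for 7 of the 11 genes (*Chaf1a*, *Chaf1b*, *Smarcal1*, *Chd7*, *Baz1a*, *Chd1* and *Chd4*), and in the *Chd9* panel a single 10-week point, at 1814, lies among the 6-week points.

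In the ISWI group, whose remodellers space nucleosomes evenly, 1 of 7 members was DE and higher outside WOS (7.39% of all genes). In the other direction 0 were DE (8.71% of all genes). *Baz1a* (ENSRNOG00000006828), the ACF1 subunit that joins the ISWI motor SMARCA5 in the ACF and CHRAC complexes, ran from 4160 to 5781 (median 4849.5) within WOS and from 6512 to 8815 (median 7070) outside it. The ages did not overlap, and the level outside WOS was 1.50-fold that within (log2 fold change -0.59 ± 0.11, adjusted p = 0.00361, and at most 0.0111 with any 1 rat left out). *Smarca5* itself, the broadly used motor, ran from 3776 to 5227 (median 4532.5) within WOS and from 3576 to 5536 (median 4907) outside it, with the 6-week range inside the 10-week range (log2 fold change -0.033 ± 0.14, adjusted p = 0.892). Its relative *Smarca1* ran from 115 to 207 (median 176) within WOS and from 163 to 265 (median 231) outside it and missed the threshold (log2 fold change -0.47 ± 0.17, adjusted p = 0.0775), although it passed in the larger set of rats (0.0473) and without rat 78 (0.0491). Calls over all genes were also more in the larger set, 3469 beside 2381 with every rat. *Bptf* and the other BAZ genes lay from -0.27 (*Bptf*) to -0.14 (*Baz2b*), so that all 7 log2 fold changes of the group were below 0 (47.5% of all genes).

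Of the 13 SWI/SNF records, 1 was DE and higher outside WOS (7.69%, beside 7.39% of all genes). In the other direction 0 were DE (8.71% of all genes), and the group centred close to 0 (median -0.066). Neither motor was DE. *Smarca4* (BRG1) ran from 1162 to 1816 (median 1594.5) within WOS and from 1180 to 2115 (median 1427) outside it (log2 fold change -0.058 ± 0.17, adjusted p = 0.844). *Smarca2* (BRM), the alternative motor, ran from 628 to 735 (median 672.5) within WOS and from 603 to 725 (median 682) outside it (log2 fold change 0.029 ± 0.085, adjusted p = 0.843). In both motors the ages overlapped. The scaffold *Smarcc2* (ENSRNOG00000031135) ran from 1033 to 1329 (median 1096.5) within WOS and from 1117 to 1621 (median 1536) outside it. The ranges overlapped, and it was DE and higher outside WOS (log2 fold change -0.37 ± 0.11, adjusted p = 0.0432), a call kept in 3 of the 13 fits with 1 rat left out, those without rat 75, 80 or 85 (adjusted p up to 0.0952). Its paralogue *Smarcc1* was not DE (log2 fold change -0.14 ± 0.12, adjusted p = 0.446), nor was *Arid1a*, a subunit often mutated in cancer (log2 fold change -0.23 ± 0.12, adjusted p = 0.223), nor its alternative *Arid1b* (log2 fold change -0.10 ± 0.12, adjusted p = 0.584). Of the rest, apart from *Smarcb1*, log2 fold changes lay from -0.20 (*Brd7*) to 0.32 (*Smarcd3*), and none was DE.

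*Smarcb1*, the core subunit lost in rhabdoid tumours, is split over 2 gene records in the table. The record *Smarcb1* (ENSRNOG00000061740) held 1, 0 and 0 normalized counts in rats 70, 71 and 85 and 219 to 368 in the other 10. The record LOC103694876 (ENSRNOG00000028302), described as the same subunit, held 294, 248 and 230 in exactly these 3 rats and 0 in the others. Their sum lay between 248 and 307 within WOS and between 219 and 368 outside it, with a mean of 285 ± 24.0 (SD, n = 6) and 285 ± 55.1 (SD, n = 7). The fitted log2 fold change of -1.39 ± 1.80 for the record *Smarcb1* rests on the 3 rats whose counts stand under the other record, and the sum gave 0.018 ± 0.13 (adjusted p = 0.940). *Ino80b* was split in the same way with the record NEWGENE_1562258, since *Ino80b* was at 0 in 7 rats and the other record at 0 in 4 of the remaining 6, and the sum lay between 26 and 56 within WOS and between 15 and 38 outside it (log2 fold change 0.58 ± 0.22, adjusted p = 0.0887). *Arid4b* also has a companion, LOC100912163, and their sum gave -0.21 ± 0.14 (adjusted p = 0.305). These genes were singled out after their values were seen.

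All 6 of the other ARID genes had log2 fold changes below 0 (47.5% of all genes). Of them 1 was DE and higher outside WOS (7.39% of all genes), and 0 were higher within WOS (8.71% of all genes). *Arid3a* (ENSRNOG00000026435), a DNA-binding partner of E2F1, ran from 47 to 82 (median 50.5) within WOS and from 64 to 134 (median 87) outside it, with overlap (log2 fold change -0.61 ± 0.19, adjusted p = 0.0459). It kept its call in 3 of the 13 fits with 1 rat left out, those without rat 80, 81 or 85 (adjusted p up to 0.0943). The other 5 lay from -0.33 (*Arid4b*, or -0.21 when summed with its companion record) to -0.19 (*Arid5a*).

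None of the 9 MTA and MBD genes was DE in limma, and 1 had an unadjusted p under 0.05. Such a p was reached by 4667 of all 14790 genes and by 20 of the 73 records. A count of this kind in a small group is therefore no result by itself. The MTA and MBD genes supply the NuRD complex and readers of methylated DNA. *Mbd2*, a reader that recruits NuRD, had the smallest p and ran from 577 to 729 (median 619) within WOS and from 643 to 944 (median 802) outside it (log2 fold change -0.29 ± 0.12, adjusted p = 0.107). It passed the threshold in the larger set of rats (0.0414), where 3469 genes of the table were DE, beside 2381 with every rat. *Mbd3*, the NuRD subunit that does not need methylated DNA, ran from 95 to 322 (median 201.5) within WOS and from 84 to 356 (median 132) outside it, a spread within each age wider than the difference between them (log2 fold change 0.21 ± 0.41, adjusted p = 0.766). The other 7 lay from -0.27 (*Mbd6*) to 0.45 (*Mbd4*).

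The remodellers that exchange the variant histone H2A.Z had no DE member among 7 in limma. Of these 7, 3 had an unadjusted p under 0.05, as did 4667 of all 14790 genes. The motor *Ino80* ran from 1056 to 2048 (median 1762) within WOS and from 1772 to 2994 (median 2272) outside it (log2 fold change -0.51 ± 0.18, adjusted p = 0.0675), and it passed the threshold with limma-trend (0.0408). With limma-trend 2608 genes of the table were DE, beside 2381 without the trend. *Ep400*, the motor of the TIP60 complex, ran from 2444 to 4042 (median 3048) within WOS and from 2937 to 4441 (median 3952) outside it (log2 fold change -0.33 ± 0.14, adjusted p = 0.124). *Srcap*, which inserts H2A.Z at start sites, ran from 2303 to 5359 (median 3867.5) within WOS and from 2922 to 5859 (median 5223) outside it (log2 fold change -0.38 ± 0.22, adjusted p = 0.249). All 3 motors were lower on average within WOS, and in each the ages overlapped. *Ino80d*, *Ino80c* and *Ino80e* had log2 fold changes of -0.45, 0.050 and 0.14 and were not DE, although *Ino80d* passed in 2 of the 13 fits with 1 rat left out (adjusted p down to 0.0255).

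The remaining bromodomain members, those outside the SWI/SNF and ISWI groups, showed the same lack of calls, with 0 of 7 DE in limma. Of these 7, 1 had an unadjusted p under 0.05 (4667 of all 14790 genes). *Brd1*, a scaffold of histone acetyltransferase complexes, came nearest and ran from 1954 to 2538 (median 2312) within WOS and from 2394 to 3152 (median 2802) outside it (log2 fold change -0.29 ± 0.099, adjusted p = 0.0670). Its ages overlapped, and it passed in the larger set of rats (0.0483), without rat 81 (0.0402) and with limma-trend (0.0410). Calls over all genes rose in each of these fits too, from 2381 to 3469, 2680 and 2608 in turn. *Brd2*, a BET protein that reads acetylated histones at active genes, ran from 371 to 1939 (median 953.5) within WOS and from 475 to 2743 (median 674) outside it (log2 fold change -0.18 ± 0.51, adjusted p = 0.838). Its ages overlapped, and its values spread widely within each. *Brd3*, *Brd8*, *Brpf1* and *Brpf3* lay from -0.30 (*Brpf3*) to 0.013 (*Brd8*).

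Neither subunit of FACT was DE. Its subunit *Supt16h* ran from 1266 to 1641 (median 1528.5) within WOS and from 1289 to 1953 (median 1642) outside it (log2 fold change -0.12 ± 0.12, adjusted p = 0.488). The partner subunit *Ssrp1* ran from 1145 to 1833 (median 1357) within WOS and from 1145 to 1432 (median 1373) outside it (log2 fold change 0.093 ± 0.13, adjusted p = 0.651). In both subunits the ages overlapped. Of the 6 FACT and SUPT genes, 0 were DE in limma and 0 had an unadjusted p under 0.05 (4667 of all 14790 genes). *Supt6h*, a histone chaperone of elongation, had the smallest p (log2 fold change -0.17 ± 0.090, adjusted p = 0.214). *Supt3h*, *Supt5h* and *Supt20h* lay from -0.42 (*Supt3h*) to 0.15 (*Supt20h*).

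To compare related subunits within a library, the log2 ratio of 7 pairs of members, each count plus 1, was taken within every rat and tested with an exact two-sided permutation test over every possible assignment of the rats to the ages, whose smallest possible p is 0.00117. *Chd3* over *Chd4*, the alternative NuRD motors, was -2.91 ± 0.18 within WOS (SD, n = 6) and -3.45 ± 0.21 outside it (SD, n = 7), a difference of 0.54 (exact permutation p = 0.00233, 0.00816 adjusted over the 7 pairs). The ratio was above every 10-week rat in 5 of 6 rats within WOS, so the balance lay further toward *Chd4* outside WOS. *Asf1b* over *Asf1a* was -4.26 ± 0.86 within WOS (SD, n = 6) and -6.60 ± 1.18 outside it (SD, n = 7), a difference of 2.34 (exact permutation p = 0.00233, 0.00816 adjusted over the 7 pairs), with 4 of 6 rats within WOS above all others. The added count of 1 weighs on this ratio, since *Asf1b* was low and stood at 0 in rat 78. *Smarca1* over *Smarca5*, the ISWI motors, was -4.79 ± 0.18 within WOS (SD, n = 6) and -4.36 ± 0.27 outside it (SD, n = 7), a difference of -0.43 (exact permutation p = 0.00874, 0.0204 adjusted over the 7 pairs). This ratio was lower within WOS, although neither gene was DE alone and only 2 of 6 rats lay below all 10-week rats. These 3 pairs kept an adjusted p under 0.05 without any 1 rat, with at most 0.0265, 0.0265 and 0.0442.

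*Smarcc1* over *Smarcc2* was -0.12 ± 0.16 within WOS (SD, n = 6) and -0.35 ± 0.16 outside it (SD, n = 7), a difference of 0.23 (exact permutation p = 0.0268, 0.0469 adjusted over the 7 pairs), and the call was lost without rat 71, 78, 81, 83, 84, 85, 86 or 87, where the adjusted p reached 0.106. No difference was detected for *Smarca2* over *Smarca4* (difference 0.087, exact permutation p = 0.555, 0.555 adjusted over the 7 pairs), *Arid1b* over *Arid1a* (difference 0.13, exact permutation p = 0.156, 0.219 adjusted over the 7 pairs) or *Mbd3* over *Mbd2* (difference 0.50, exact permutation p = 0.360, 0.420 adjusted over the 7 pairs). For the last of these the SD within an age reached 1.10, larger than the difference.

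**Figure D3:**
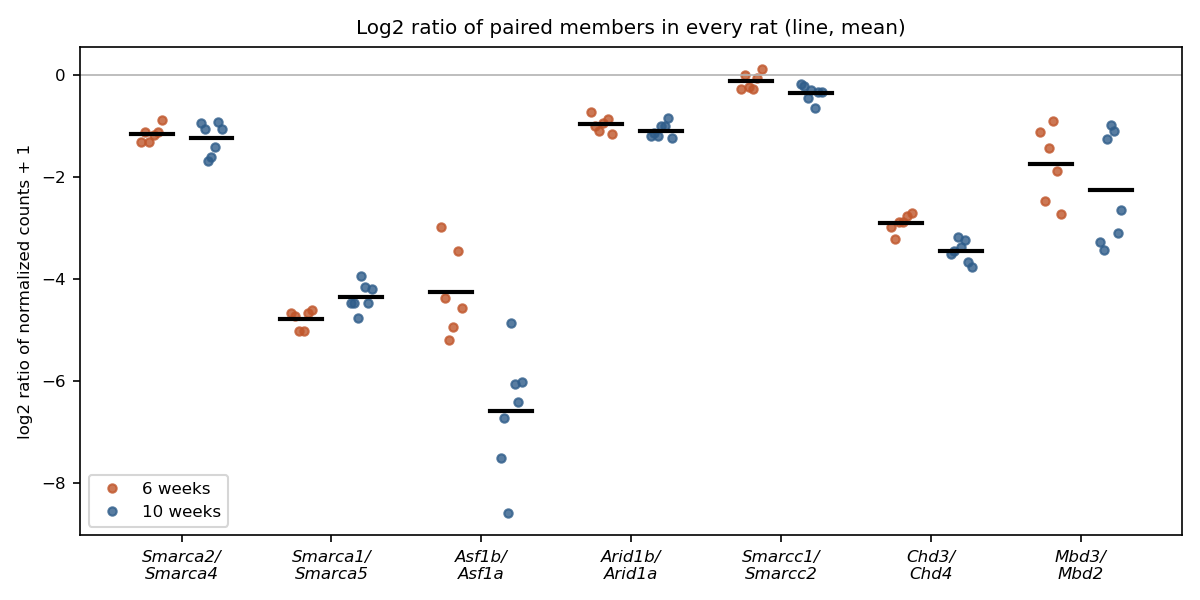
Log2 ratio of normalized counts (each plus 1) for 7 pairs of related members in every rat (points), with the mean of each age as a line. The ratios *Chd3*/*Chd4* and *Asf1b*/*Asf1a* are higher within WOS, *Smarca1*/*Smarca5* is lower, and the points of *Mbd3*/*Mbd2* spread over more than 1 log2 unit within each age.

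Other subunits and readers that the symbol rule did not take were followed as a list of 74 partner genes, of which 67 symbols (68 records) were in the table. Of these records 3 were DE and higher within WOS (4.41%, beside 8.71% of all genes) and 4 higher outside WOS (5.88%, beside 7.39%), with a median log2 fold change of -0.075. Higher within WOS was *Hjurp*, the chaperone that loads the centromeric histone CENP-A, which ran from 143 to 239 (median 202.5) within WOS and from 37 to 107 (median 84) outside it without overlap (log2 fold change 1.38 ± 0.22, adjusted p = 0.00166). *Mcm2*, a replicative helicase subunit that also holds H3 and H4, ran from 140 to 332 (median 192) within WOS and from 43 to 219 (median 71) outside it, with overlap (log2 fold change 1.40 ± 0.34, adjusted p = 0.0154). *Tfpt*, an INO80 subunit, ran from 82 to 107 (median 90.5) within WOS and from 57 to 81 (median 62) outside it without overlap (log2 fold change 0.49 ± 0.11, adjusted p = 0.0129). The mitosis and S phase markers moved with *Hjurp* and *Mcm2* as given above, and their part was not tested.

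Higher outside WOS were 2 further bromodomain genes whose ages did not overlap. *Brwd1*, which joins a bromodomain to WD repeats, ran from 2488 to 3711 (median 3168) within WOS and from 4430 to 6272 (median 5393) outside it (log2 fold change -0.77 ± 0.12, adjusted p = 0.00115). *Zmynd11*, a reader of methylated H3.3 in transcribed genes, ran from 1292 to 1456 (median 1384) within WOS and from 1607 to 1968 (median 1715) outside it (log2 fold change -0.33 ± 0.082, adjusted p = 0.0188). *Epc1*, a scaffold of the TIP60 acetyltransferase complex, and *Ubn2*, a subunit of the HIRA chaperone of H3.3, overlapped between the ages (log2 fold change -0.42 ± 0.11, adjusted p = 0.0236 and log2 fold change -0.42 ± 0.13, adjusted p = 0.0474). *Epc1* lost its call without rat 70, 84 or 87 (adjusted p up to 0.0583), and *Ubn2* kept it only without rat 75, 85 or 86 (adjusted p up to 0.109 in the others). The NuRD, ISWI and SWI/SNF partners, 5, 5 and 9 records in turn, held 0 DE genes in limma. Of them 0, 0 and 2 had an unadjusted p under 0.05 (4667 of all 14790 genes).

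**Figure D4:**
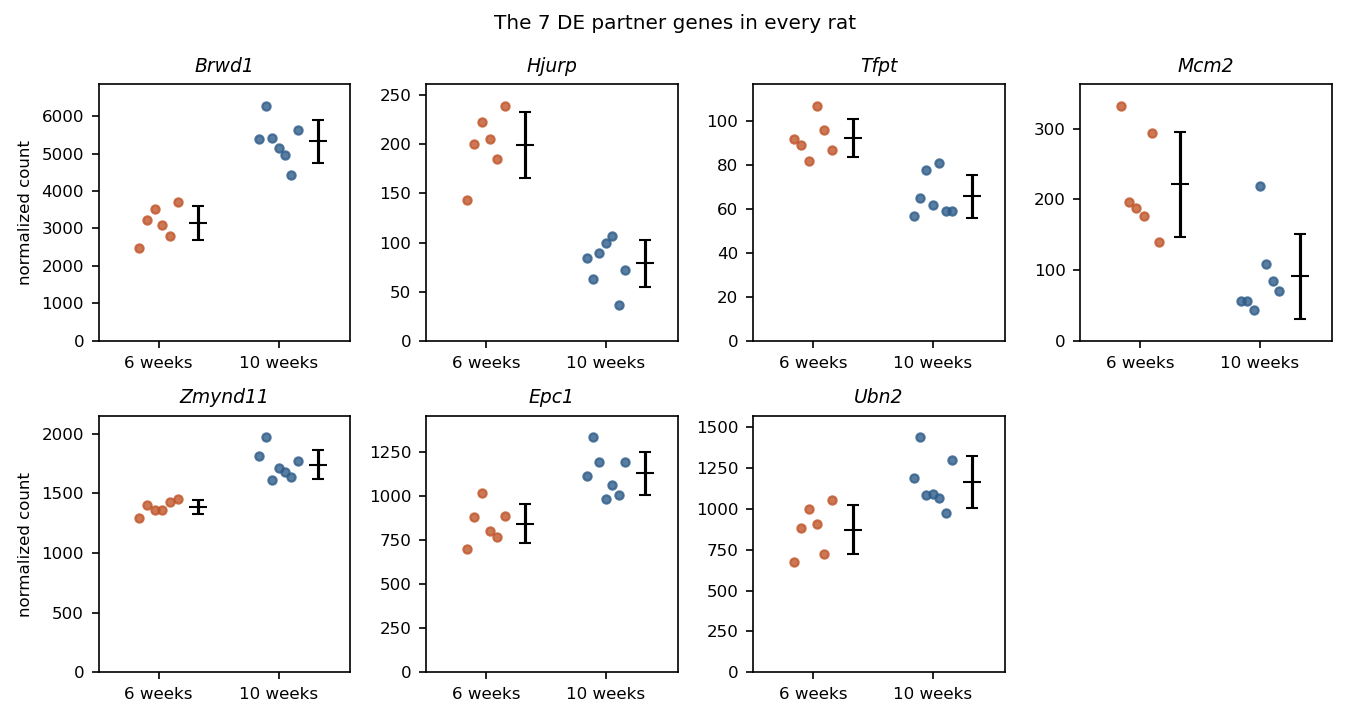
Normalized counts of the 7 DE partner genes in every rat (points) at 6 and 10 weeks, with mean ± SD (bars), each panel on its own axis from 0. *Hjurp* and *Tfpt* are higher at 6 weeks and *Brwd1* and *Zmynd11* at 10 weeks with no overlap, while the points of *Mcm2*, *Epc1* and *Ubn2* overlap.

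Several members differed more between the sets of rats than between the ages. The sets were formed from all genes, members included, so these values are a description without a test, and the genes were named after their values were seen. *Brd2* ran from 1289 to 2743 in the smaller set and from 371 to 1219 in the larger set, and the medians differed 3.08-fold. *Mbd6* ran from 460 to 601 in the smaller set and from 168 to 329 in the larger set. *Brpf3* ran from 587 to 727 in the smaller set and from 271 to 460 in the larger set. In each of these genes the 2 rats of 6 weeks and the 3 of 10 weeks in the smaller set stood above all 8 others. The same held for *Arid5a*, *Brd3* and *Arid1b* (2.81% of all genes did so), and *Ino80c* was the only member lower in every rat of the smaller set (2.31% of all genes; it ran from 90 to 146 in the smaller set and from 153 to 204 in the larger set). Of the 11 DE members, all 11 kept their sign in both sets. They had been called DE with the rats of both sets together, so their selection favoured a kept sign. The share of other genes that kept theirs was not taken, so this is no separate check. In the larger set 5 and 8 members were DE (higher within and outside WOS). Calls over all genes rose there too, from 2381 of 14790 with every rat to 3469 of 14774, so the rise is no result about the members. In the smaller set 0 members were DE, and no gene of the table was DE there. What parts the sets was not tested.

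**Figure D5:**
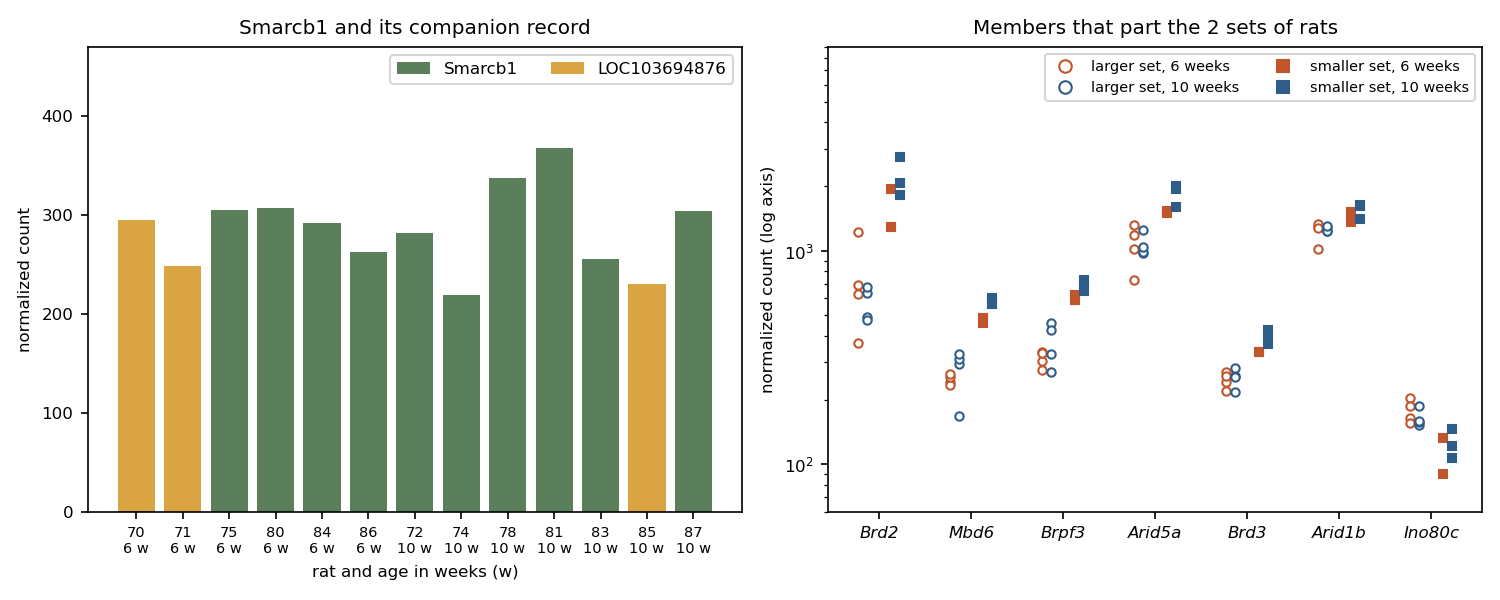
Left, normalized counts of *Smarcb1* and of the record LOC103694876, stacked for every rat, where rats 70, 71 and 85 draw on the second record and the sum stays between 219 and 368. Right, normalized counts (log axis) of 7 members in rats of the larger set (open circles) and the smaller set (filled squares), coloured by age; the squares lie above the circles for 6 genes and below for *Ino80c*, at both ages.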

How the data were processed

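RNA-seq libraries of 6 rats of 6 weeks and 7 rats of 10 weeks were grouped by the age in their labels. The authors obtained estimated counts from RSEM 1.2.22, and the deposited value of a gene in a rat is such a count after scaling by library and rounding, a unit treated as a score and called a normalized count. The labels list the rn5 build, and the annotation is not given in the sources used here. Columns of the authors' own edgeR comparison in the deposited table (log2 fold changes and mean abundances, a likelihood ratio score, p-values and false discovery rates) and a column on cell location were not used. DESeq2, listed in the submitters' processing notes, was not used here.

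Since the values are not raw counts, limma 3.58.1 (R 4.3.3) was fitted to log2(normalized count + 1), with two-sided tests and a minimum mean of 1, which all 14790 genes met. The procedure was tested on simulated data. Other values were computed in Python 3.11.15. The members, partner genes, pairs and marker lists were chosen with earlier results of these data known. The text names the DE members, the core member of each complex, the member with the smallest p where a group had no DE member, the members of the pairs, and at most 6 DE partner genes by adjusted p. The values of 1 member are not reported here. *Ubn2* and others are named after their values were seen. Promoters are from RefSeq on GRCr8, matched by symbol. Alternatives were other scalings, a pseudocount of 0.1, minimums of 10, limma-trend, each rat or rat set left out and, added after the data were seen, summed split records and leaving out rats 78 and 80.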

Additional observations from a re-analysis of the deposited data

Results flagged for a closer look

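In 9 of 146 sets of values (73 records at 2 ages), 1 rat stood far from the others of its age by Dixon's ratio at the 95% level, which chance alone gives in about 1 of 20. Rat 85, outside WOS, was the low one in 4 of these: *Arid1a* (2216, others 2849 to 3290), *Chd7* (2262, others 2964 to 3317), *Srcap* (2922, others 4654 to 5859) and *Smarcb1* (0, others 219 to 368, a split record). Rat 81, outside WOS, was low for *Chd9* (1814, others 3230 to 4006) and high for *Hells* (62, others 0 to 23). Rat 87, outside WOS, was high for *Supt3h* (46, others 26 to 32). Within WOS, rat 80 was low for *Brd8* (480, others 552 to 595) and rat 75 was high for *Ino80d* (897, others 428 to 585). Without rat 85 the adjusted p of *Chd7* was 0.00136, and without rat 81 that of *Chd9* was 0.00357 and that of *Hells* 0.0792.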

How the results depend on the processing

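The 4 calls within WOS held under each scaling, the pseudocount of 0.1, limma-trend and every rat left out. With at least 10 counts in every rat, 2 members were DE within WOS, since *Chaf1b* and *Asf1b* were then not tested. The 7 calls outside WOS became 4 under library size scaling, where *Chd4*, *Smarcc2* and *Arid3a* were lost, and 3 to 7 with 1 rat left out. They became 6 under upper quartile scaling, where *Smarcc2* was lost (adjusted p = 0.0512), and 5 without rats 78 and 80, where *Chd4* (0.0728) and *Smarcc2* (0.0768) were lost. With limma-trend *Arid3a* was lost (0.0502) while *Ino80* and *Brd1* passed, which made 8. The larger set alone also gave 8, with *Chd4* (0.0859) and *Smarcc2* (0.0739) lost and *Brd1*, *Mbd2* and *Smarca1* gained. The fewest, 3, came without rat 70 or rat 84, and 4 came without rat 72, 74, 83, 86 or 87. Calls over all genes in both directions fell as well, from 2381 with every rat to 1411 without rat 70 and 1488 without rat 84. Without rat 72, 74, 83, 86 or 87 they lay between 1558 and 2330. They rose to 2608 with limma-trend, 2680 without rat 81 and 3469 in the larger set alone. The 4 partner genes DE outside WOS became 2 under library size scaling, 2 without rats 78 and 80, and 2 to 4 with 1 rat left out (2 without rat 70, 84 or 87). In the smaller set alone, with 5 rats, 0 members and 0 partner genes were DE in either direction. The difference of *Smarcc1*/*Smarcc2* ranged over 0.18 to 0.26 with 1 rat left out, and that of *Smarca1*/*Smarca5* became -0.73 in the smaller set. Signs turned only for genes that were not DE, while the DE genes had been chosen in a fit with these same rats. In the larger set *Brd2* gave 0.25 and *Smarca4* 0.14, and in the smaller set *Hells* gave -0.60, *Mbd3* -0.26 and *Ssrp1* -0.095. With 1 rat left out, *Brd2* ranged over -0.40 to 0.074, *Smarca4* over -0.13 to 0.019 and *Smarca5* over -0.093 to 0.016. *Smarca5* gave 0.014 under library size scaling and 0.0024 without rats 78 and 80, and *Smarcb1* 0.018 with its records summed. Summing all split records left the counts at 4 and 7. The cause of these shifts was not tested. Rat numbers are not shared between the ages, so no rats were paired. The depth behind each rounded value is not known, which limits genes with few counts such as *Asf1b* and *Hells*.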
